A study of Mus musculus with 6 samples.

Results

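Described here are 8 tissue kallikreins, *Klk5*, *Klk7*, *Klk8*, *Klk9*, *Klk10*, *Klk11*, *Klk13* and *Klk14*, and *Spink5*, which encodes an inhibitor of some of them. These genes were taken by name from the table of counts per gene, so that 9 of its 56262 genes are members. Their difference between KO and WT in these same samples was known when they were picked, so that difference is given below as a description, with no p-value. The gene lists set beside them were also chosen with earlier results of these data known. Their calls and p-values are therefore not independent of that knowledge. RNA-seq was run on leg muscle of mouse fetuses at E18.5, with 3 WT samples and 3 samples from fetuses in which the long noncoding RNA *SYISL* was knocked out (*SYISL* KO). The study asked how *SYISL* acts on the formation of muscle fibers before birth. Fetuses of each genotype came from matings within that genotype, so genotype cannot be told apart from the mother, her litter or her environment. The WT mice came from an animal center and the KO line from earlier work, no strain is given, and the labels do not say whether replicates of a group shared a litter, so p-values measure only the spread between these samples.

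Tissue kallikreins are secreted serine proteases that are made as inactive precursors and switched on by cleavage. In the outer layers of the epidermis several of them form a cascade: KLK5 can activate itself and then KLK7 and KLK14, and the active proteases cut the desmosomal proteins that hold dead cells together, so that the surface is shed. LEKTI, the multidomain protein that *Spink5* encodes, holds KLK5, KLK7 and KLK14 in check, and loss of *SPINK5* in people causes Netherton syndrome, with excessive shedding and a defective skin barrier. Skeletal muscle fibers are not a known major source of these proteases.

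The libraries held between 82054811 and 102233181 counts, and no library of either genotype stood apart in depth. All 8 skeletal muscle markers examined were present, with a summed level of 17303 to 19461 CPM (the count scaled to library size, with library sizes adjusted by TMM factors) in WT against 37134 to 44878 CPM in KO. Keratinocyte markers were present as well, and in WT they were as high as the muscle markers. The summed spinous markers alone ranged from 14735 to 22406 CPM in WT and from 334 to 505 CPM in KO. The labels name leg muscle and do not say how much skin the samples held. No gene of the annotation carries the name *SYISL*, so its loss was not checked in these counts.

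*Klk5* and *Klk7*, the trypsin-like and chymotrypsin-like proteases of epidermal shedding, were far lower in KO fetuses compared to WT. *Klk7* (ENSMUSG00000030713.6, chromosome 7, 43811294 to 43816359, plus strand, mm10) had 15419, 19243 and 18880 counts in WT replicates 1, 2 and 3, and 1027, 1314 and 1295 counts in KO replicates 1, 2 and 3. On the CPM scale these were 163, 233 and 179 in WT against 11.0, 13.8 and 13.3 in KO. Every KO sample lay below every WT sample, and the lowest WT sample exceeded the highest KO sample 11.8-fold. The mean level of *Klk7* was 192 ± 36.7 CPM in WT against 12.7 ± 1.52 CPM in KO (SD, n = 3 per group), a 15.1-fold difference, with a log2 fold change of -3.92 (SE 0.142).

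*Klk5* (ENSMUSG00000074155.2, chromosome 7, 43841971 to 43851181) had 50.3, 76.6 and 60.2 CPM in the WT replicates and 3.02, 4.10 and 4.21 CPM in the KO replicates. The 2 groups did not overlap, and its mean was 62.3 ± 13.3 CPM in WT against 3.78 ± 0.66 CPM in KO (SD, n = 3 per group). The log2 fold change of *Klk5* was -4.04 (SE 0.173), a 16.5-fold lower level in KO. In bulk tissue, fewer cells of a type and less RNA per cell cannot be told apart, and this holds for each difference given here.

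*Klk14*, the third protease of the shedding cascade, was barely detected in either genotype. It had 5, 3 and 14 counts in the WT replicates and 5, 4 and 6 counts in the KO replicates, and a count of 3 is the floor used here. The groups overlapped, and the gene was left out of the fit by the filter on low counts, which makes it the one member of 9 that did not pass. The ratio of its summed counts, WT over KO and scaled to depth, was 1.48, with a 95% interval of 0.736 to 3.08 that covers counting error only. A difference in *Klk14* was not detectable at this depth.

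*Klk8*, also known as neuropsin, is made in the granular layer of the epidermis and in the brain. It had 25.6, 34.6 and 26.8 CPM in the WT replicates and 3.96, 3.99 and 3.96 CPM in the KO replicates. The KO replicates were almost the same, at 3.97 ± 0.017 CPM (SD, n = 3), while the WT replicates averaged 29.0 ± 4.86 CPM. The log2 fold change of *Klk8* was -2.87 (SE 0.114), a 7.31-fold lower level in KO. *Klk9*, its neighbour in the cluster, had 23.2, 30.9 and 24.7 CPM in WT against 4.05, 3.84 and 4.24 CPM in KO, with a log2 fold change of -2.70 (SE 0.111). The groups did not overlap for either gene.

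*Klk11*, which encodes a trypsin-like protease, showed the smallest difference of the 8 members fitted. Its levels were 19.9, 28.6 and 22.9 CPM in WT against 4.95, 4.51 and 5.19 CPM in KO, which is a log2 fold change of -2.28 (SE 0.128) and a 4.87-fold lower level in KO. Even so, its lowest WT sample was 3.83-fold above its highest KO sample. *Klk13*, another trypsin-like family member, had 15.7, 25.5 and 18.2 CPM in WT against 2.05, 1.89 and 1.96 CPM in KO. Its log2 fold change was -3.33 (SE 0.175), a 10.1-fold lower level in KO with no overlap.

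*Klk10*, a family member with little known protease activity of its own, had the largest difference of the kallikreins. It had 1244, 1706 and 1850 counts in the WT replicates against 87, 49 and 86 counts in the KO replicates. The corresponding levels were 13.1, 20.6 and 17.5 CPM in WT against 0.928, 0.514 and 0.884 CPM in KO. KO replicate 2 was the lowest of the 6 samples, and the groups did not overlap. The log2 fold change of *Klk10* was -4.46 (SE 0.223), which corresponds to a 22.1-fold lower level in KO.

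*Spink5*, the inhibitor gene, differed more than any of the proteases. It lies on chromosome 18 (43963235 to 44022501, plus strand, mm10, ENSMUSG00000055561.9), away from the kallikrein cluster, and so shares no neighbourhood with them. It had 6942, 10139 and 9340 counts in the WT replicates and 189, 284 and 329 counts in the KO replicates. On the CPM scale its level was 73.3, 123 and 88.5 in WT against 2.02, 2.98 and 3.38 in KO. All KO samples were below all WT samples, by 21.7-fold at the closest pair. Its mean was 94.8 ± 25.3 CPM in WT against 2.79 ± 0.702 CPM in KO (SD, n = 3 per group), with a log2 fold change of -5.08 (SE 0.228) and a 34.0-fold lower level in KO.

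**Figure D1:**
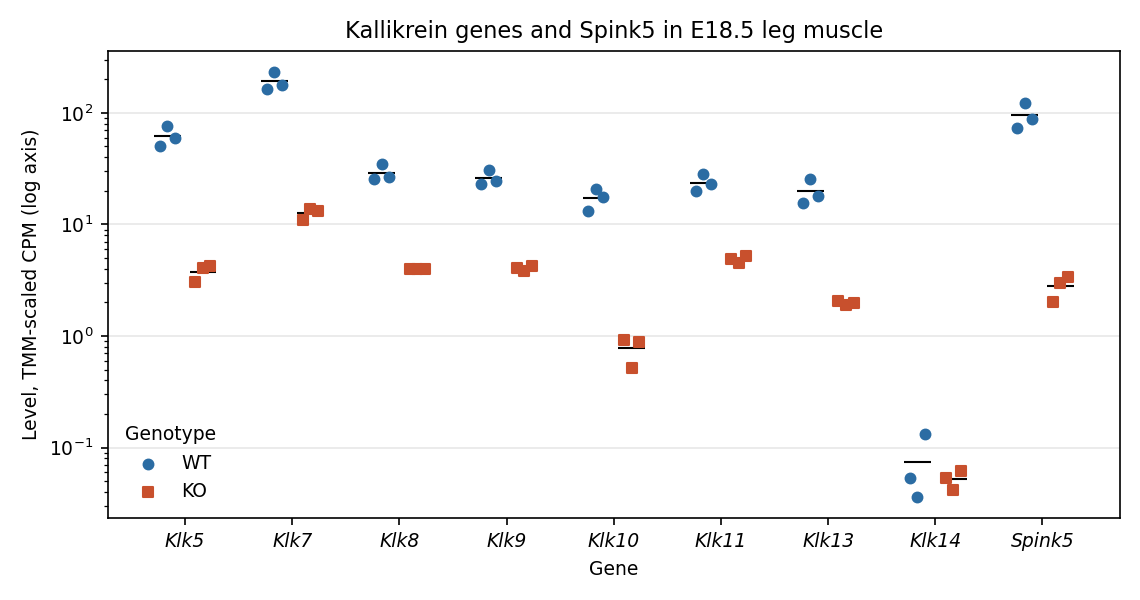
Level of each gene in TMM-scaled CPM on a log axis, with 1 point per sample (circles, WT; squares, KO) and a line at the mean of each group of 3. In 8 of the 9 genes every KO sample lies below every WT sample, while the *Klk14* samples of both genotypes overlap near the floor.

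Of the 8 members fitted, 8 were called lower in KO by the threshold used for all genes (edgeR's quasi-likelihood test, a fold change above 1.5 at a Benjamini-Hochberg adjusted p below 0.05), where 8.39% of the 22071 genes tested were called lower. DESeq2 fitted all 9 members and limma-voom 8, and each called 8 lower, where DESeq2 called 6.88% of all genes lower and 6.41% higher and limma-voom 8.21% lower and 8.25% higher. All KO samples were below all WT samples in the same 8 members and in 28.5% of all genes tested. Since the members were picked on this contrast, nothing is read from either count. The median log2 fold change was -3.62 over the 8 members and -0.0041 over all genes tested. Ordered from the largest difference to the smallest, the members were *Spink5*, *Klk10*, *Klk5*, *Klk7*, *Klk13*, *Klk8*, *Klk9* and *Klk11*.

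The WT samples were not alike. WT replicate 2 was the highest WT sample and WT replicate 1 the lowest for 8 of the 9 members, the exception being *Klk14*, which was highest in replicate 3 and lowest in replicate 2. The summed keratinocyte markers of all 3 lists given below also had their maximum in WT replicate 2 and their WT minimum in replicate 1, whereas the summed muscle markers were lowest in WT replicate 2; the part of either in the order of the members was not tested. The KO samples had no such common order: KO replicate 3 was the highest for 5 members, and KO replicates 1 and 2 were the highest for 2 members each.

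Levels were compared between members per kb of exon, which takes out the effect of gene length. In WT fetuses *Klk7* stood highest at 101 ± 19.4 CPM per kb, followed by *Klk5* at 46.7 ± 9.95 CPM per kb (SD, n = 3). The next members in WT were *Spink5* at 19.8, *Klk8* at 18.8, *Klk9* at 17.8, *Klk11* at 16.2, *Klk10* at 12.5 and *Klk13* at 8.62 CPM per kb. The ranges of neighbours among these overlapped over the 3 samples. Within samples, *Klk8* was above *Klk9*, *Klk9* above *Klk11*, *Klk11* above *Klk10* and *Klk10* above *Klk13* in all 3. *Spink5* was above *Klk8* in 2 of the 3. *Klk7* did not overlap *Klk5* in WT, *Klk5* did not overlap *Spink5*, and *Klk13* did not overlap *Klk14*, which was last at 0.058 CPM per kb.

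The order was different in KO fetuses. *Klk7* was again the highest, at 6.69 ± 0.80 CPM per kb, but *Klk11* came next at 3.33 CPM per kb. The range of *Klk11* overlapped that of *Klk5* at 2.83, and *Klk5* in turn overlapped *Klk9* at 2.74. Within samples, *Klk11* was above *Klk5* in all 3, and *Klk5* was above *Klk9* in 2 of the 3. *Klk8* stood at 2.58, *Klk13* at 0.856, *Spink5* at 0.584 and *Klk10* at 0.565 CPM per kb. The last 2 overlapped, with *Spink5* above *Klk10* in 2 of the 3 samples. *Spink5* thus held rank 3 among the members in WT and rank 7 in KO.

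The make-up of the kallikrein pool was examined as each gene's share of the summed CPM per kb of the 8 kallikreins. *Klk7* made up 46.2, 45.6 and 45.0% of the sum in the WT replicates and 31.5, 36.7 and 33.9% in the KO replicates. The share of *Klk5* was 21.0 ± 0.657% in WT against 14.3 ± 1.76% in KO. *Klk11* took the opposite course, with 7.31 ± 0.097% in WT against 17.0 ± 1.45% in KO (SD, n = 3 per group). *Klk9* (8.07% and 14.0%) and *Klk8* (8.53% and 13.2%) also had larger shares in KO, whereas the share of *Klk10* was 5.60% in WT against 2.89% in KO. The share of *Klk13* overlapped between the genotypes.

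**Figure D2:**
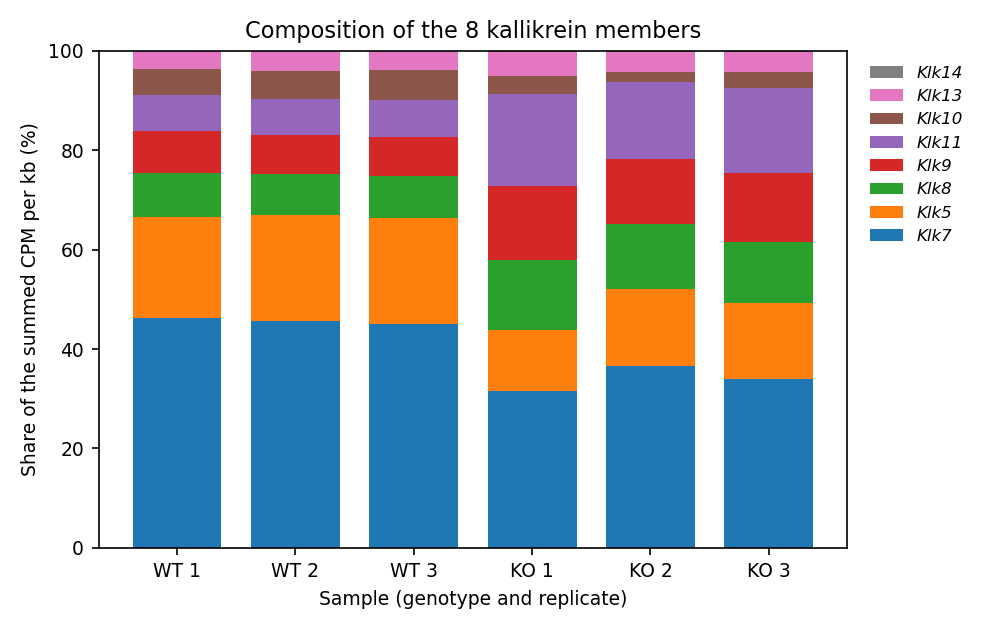
Stacked bars give the share of each kallikrein, in percent of the summed CPM per kb of the 8 genes, in each of the 6 samples. *Klk7* and *Klk5* take a smaller part of every KO bar than of any WT bar, and *Klk11*, *Klk9* and *Klk8* a larger one.

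The summed transcripts of the 8 kallikreins and those of *Spink5* did not keep their proportion. The sum holds all 8 genes, not only *Klk5*, *Klk7* and *Klk14*, whose products LEKTI is said above to hold in check. *Klk8*, *Klk9* and *Klk11*, with larger shares in KO, are part of it. A ratio for the named targets alone was not computed. The summed level of the 8 kallikreins was 370 ± 71.8 CPM in WT against 32.2 ± 1.98 CPM in KO. Per kb of exon, the kallikrein sum was 12.1, 10.5 and 11.4 times the level of *Spink5* in the WT replicates and 43.5, 31.9 and 29.3 times that level in the KO replicates. The mean ratio of transcript levels was 11.3 ± 0.814 in WT against 34.9 ± 7.59 in KO (SD, n = 3 per group), with no overlap. This is a ratio of RNA levels, and neither protein nor protease activity was measured.

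The 8 kallikreins lie in one cluster on chromosome 7, all on the plus strand, from 43690418 (the start of *Klk14*) to 43851181 (the end of *Klk5*), a span of 161 kb. In order along the cluster they are *Klk14*, *Klk13*, *Klk11*, *Klk10*, *Klk9*, *Klk8*, *Klk7* and *Klk5*. Differences did not follow this order step by step: *Klk10*, with a log2 fold change of -4.46, sits between *Klk11* at -2.28 and *Klk9* at -2.70. The other genes within the span were *Gm44817*, *2310002F09Rik*, *Gm44814*, *Klk12* and *Klk6*. *2310002F09Rik*, a noncoding transcript on the minus strand, overlaps 6 of the kallikreins, namely *Klk14*, *Klk13*, *Klk11*, *Klk10*, *Klk9* and *Klk8*. It had 133, 168 and 164 counts in WT against 53, 53 and 38 counts in KO (log2 fold change -1.72, SE 0.195, adjusted p = 8.9e-05). The strand setting of the counting is not given in the sources used here, so reads of the transcript and of the genes it overlaps may not have been told apart. *Gm44817* and *Gm44814* had at most 2 counts in any sample.

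**Figure D3:**
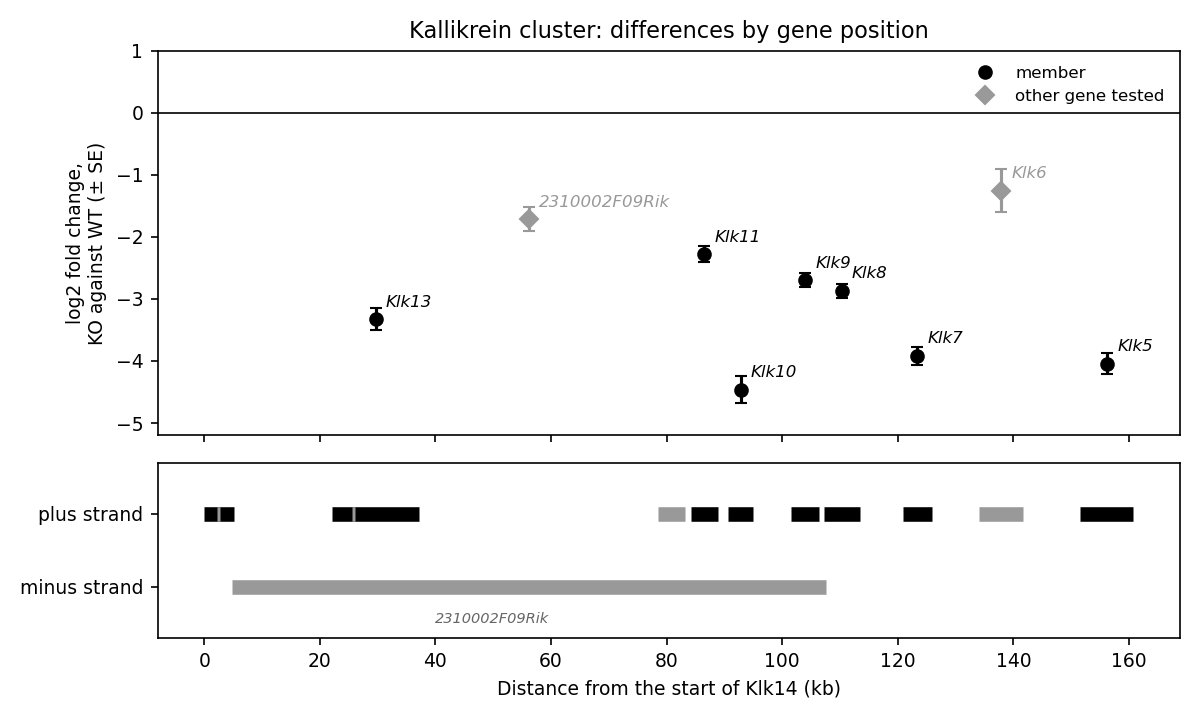
The upper panel plots the log2 fold change of each fitted gene of the cluster, KO against WT, with its SE, at the gene's distance in kb from the start of *Klk14* (circles, members; diamonds, other genes), and the lower panel shows the extent of every gene on each strand. *Klk10* at -4.46 stands below its neighbours *Klk11* at -2.28 and *Klk9* at -2.70.

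Genes around the cluster were called in both directions. With the 10 protein-coding genes on each side added, 25 genes in or beside the cluster were examined, of which 11 could be tested and 3 were called lower and 3 higher in KO (all genes: 8.39% lower and 8.31% higher). *Vsig10l* fell from a WT mean of 26.0 ± 7.25 CPM to 5.98 CPM in KO (log2 fold change -2.12, SE 0.176, adjusted p = 1.1e-05), and the other 2 genes that fell were *2310002F09Rik* and *Klk6*. *Cd33*, a receptor of myeloid cells, was higher in KO, at a log2 fold change of 0.62 (SE 0.070, adjusted p = 8.8e-05), but was under the 1.5-fold threshold when WT replicate 1 or KO replicate 1 was left out (0.58 in both cases). The other 2 genes called higher were *Klk1b8* and *Klk1b26*.

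The bases just before the start of 4 of the kallikreins are shown because these genes differ in their motifs. They were chosen after their values were seen. Sequences are those of RefSeq on GRCm38.p6, plus strand, and each run covers the 100 bases before the start. Capitals mark CCACCC or its reverse complement GGGTGG, a motif of Krüppel-like factors, and in *Klk10* also TTCCGG, the reverse complement of the ETS motif CCGGAA.
Klk13, chr7:43712467-43712566: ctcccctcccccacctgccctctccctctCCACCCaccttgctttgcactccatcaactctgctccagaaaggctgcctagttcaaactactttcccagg
Klk10, chr7:43780954-43781053: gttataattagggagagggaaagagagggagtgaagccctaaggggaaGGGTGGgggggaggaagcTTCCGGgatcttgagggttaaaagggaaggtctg
Klk8, chr7:43797477-43797576: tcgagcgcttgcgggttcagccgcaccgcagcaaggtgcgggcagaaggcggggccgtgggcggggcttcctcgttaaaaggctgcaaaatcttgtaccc
Klk7, chr7:43811194-43811293: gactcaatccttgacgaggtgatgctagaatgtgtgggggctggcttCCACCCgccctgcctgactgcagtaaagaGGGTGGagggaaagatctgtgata

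Windows of 300 bases, 250 before and 50 from the start, were searched on both strands for 5 motifs. The 8 kallikreins had 9 windows, since *Klk11* has 2 annotated starts, and no window of *Spink5* was used here. CCACCC was found in 7 of the 9 windows, against 31.5% of the 32851 windows of all genes and 13 of the 19 windows of the other kallikreins. *Klk13* held 3 copies, *Klk7*, *Klk10* and a window of *Klk11*, the kallikrein with the smallest difference, held 2 each, while the window of *Klk8* held none. CCGGAA occurred in 1 of the 9 windows, that of *Klk10*, and in 14.9% of all windows. TATAAA (13.6% of all windows), the AP-1 motif TGANTCA (7.81%) and the grainyhead motif ACCGGT (2.33%) were in 0 of the 9 windows. These matches describe letters in a window and not binding.

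The 18 other kallikrein genes, most of them rodent-specific *Klk1b* genes made in salivary glands, had few counts, apart from *Klk1b26*. Of the 18, 4 passed the filter on low counts, and of these 2 fell and 2 rose in KO by edgeR's quasi-likelihood test (all genes: 8.39% lower and 8.31% higher). *Klk6* had 11, 13 and 19 counts in WT against 6, 7 and 5 in KO (log2 fold change -1.25, SE 0.348, adjusted p = 0.016), and it lost its call with DESeq2 (adjusted p = 0.112) and without WT replicate 3 or KO replicate 3 (adjusted p = 0.074 and 0.064). *Klk1* had 42, 17 and 31 counts in WT against 15, 9 and 14 in KO (log2 fold change -1.25, SE 0.342, adjusted p = 0.015), and it lost its call without WT replicate 1 or KO replicate 2 (adjusted p = 0.056 and 0.061).

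*Klk1b26* went the other way from the members, with 374, 265 and 371 counts in WT against 641, 825 and 766 in KO (log2 fold change 1.13, SE 0.108, adjusted p = 2.8e-05). *Klk1b8* had 9, 2 and 4 counts in WT against 10, 25 and 18 in KO (log2 fold change 1.78, SE 0.512, adjusted p = 0.019), and its call was lost without WT replicate 3, KO replicate 2 or KO replicate 3 (adjusted p = 0.074, 0.080 and 0.056). The *Klk1b* genes are close copies of each other, so their reads may be split between them and their counts are uncertain. *Klk12*, which lies inside the cluster, had 11, 8 and 19 counts in WT against 0, 0 and 4 in KO, *Klk4* had 15, 11 and 10 in WT against 3, 8 and 5 in KO, and *Klk1b1* had 8, 11 and 9 in WT against 5, 1 and 0 in KO. These 3 genes did not pass the filter, and their groups did not overlap. All KO samples were below all WT samples in 28.5% of the genes that passed it. With no filter on low counts, edgeR called *Klk12* (adjusted p = 0.0014) and *Klk1b1* (adjusted p = 0.020) lower, and not *Klk4* (adjusted p = 0.070).

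Other protease inhibitors of epithelia were lower as well. Of 20 genes listed, 13 could be tested, and 9 fell, 1 rose and 3 were not called (all genes: 8.39% lower). *Serpinb5*, which encodes maspin, fell from a WT mean of 164 ± 29.0 CPM to 8.55 CPM in KO (log2 fold change -4.26, SE 0.123, adjusted p = 3.1e-08). *Serpina12*, which encodes vaspin, an inhibitor of KLK7, fell by 3.89 on the log2 scale (SE 0.155, adjusted p = 1.3e-07). *Spint2*, an inhibitor of membrane-anchored serine proteases, fell by 2.06 on the log2 scale (SE 0.096, adjusted p = 2.8e-07). *Spink2*, known from the testis, was the gene that rose, with a log2 fold change of 0.93 (SE 0.089, adjusted p = 2.8e-05). The median log2 fold change of the 13 genes was -2.06.

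Proteases that activate kallikreins or act beside them in the epidermis were listed as a further group of 18. Of the 15 that could be tested, 13 fell and 0 rose (all genes: 8.39% lower and 8.31% higher). At an unadjusted p under 0.05 none was higher either, nor did DESeq2 or limma-voom call any higher. *Asprv1*, which encodes the filaggrin-processing protease SASPase, fell from a WT mean of 1199 ± 236 CPM to 83.0 CPM in KO (log2 fold change -3.85, SE 0.130, adjusted p = 6.5e-08). *Casp14*, a caspase of cornifying cells, had a log2 fold change of -2.70 (SE 0.137, adjusted p = 4.6e-07). *Ctsd*, the widely made lysosomal protease cathepsin D, had a log2 fold change of only -0.59 (SE 0.068, adjusted p = 1.0e-04) and was under the 1.5-fold threshold without WT replicate 2 (-0.51) or KO replicate 1 (-0.55). *St14* and *Prss8*, named after their values were seen because they encode the matriptase and prostasin that start the cascade, had log2 fold changes of -2.31 (SE 0.135) and -2.86 (SE 0.117).

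Of 14 genes for substrates and receptors of the proteases, 8 fell, 0 rose and 6 were not called by edgeR (all genes: 8.39% lower and 8.31% higher). Of these 14, 1 was higher at an unadjusted p under 0.05, and DESeq2 called 0 and limma-voom 1 higher. *Flg*, the filaggrin gene, fell by 1.60 on the log2 scale (SE 0.099, adjusted p = 1.6e-06) and *Flg2* fell by 2.49 (SE 0.125, adjusted p = 4.4e-07). *Cdsn*, which encodes corneodesmosin, the adhesion protein cut by KLK5 and KLK7 during shedding, fell from a WT mean of 150 ± 40.3 CPM to 12.7 CPM in KO (log2 fold change -3.56, SE 0.198, adjusted p = 8.3e-07). *F2rl1*, the gene of the receptor PAR2 that KLK5 can cleave, was named after its values were seen. It had 7.77 ± 0.835 CPM in WT against 5.65 CPM in KO (log2 fold change -0.46, SE 0.104, adjusted p = 0.0058), which is under the 1.5-fold threshold.

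Markers of keratinocytes, a choice made with earlier results of these data known, moved in the same direction as the members. Of 6 basal markers, 5 fell and 1 was not called, and 6 of 6 spinous and 6 of 6 granular and cornified markers fell (all genes: 8.39% lower). In each list 0 were higher by edgeR, DESeq2, limma-voom or an unadjusted p under 0.05. The summed basal markers ranged from 1665 to 1967 CPM in WT and from 378 to 468 CPM in KO. The summed spinous markers ranged from 14735 to 22406 CPM in WT and from 334 to 505 CPM in KO, and the granular and cornified markers from 3703 to 5349 CPM and from 364 to 423 CPM. No marker of these 3 lists was at 0 in KO. Their part in the differences of the members was not tested. *Flg* and *Flg2* are in both the substrate and the granular lists, and *Dsg1a* in the substrate and the spinous lists.

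Among the markers of the basal layer, *Krt5* had a log2 fold change of -1.96 (SE 0.110, adjusted p = 8.8e-07), *Krt14* of -2.59 (SE 0.074, adjusted p = 3.0e-08) and *Krt15* of -3.45 (SE 0.091, adjusted p = 2.2e-08). Of the spinous genes, *Krt1* had a log2 fold change of -5.47 (SE 0.239, adjusted p = 2.0e-07), *Krt10* of -6.20 (SE 0.296, adjusted p = 3.1e-07) and *Krtdap* of -3.77 (SE 0.101, adjusted p = 2.2e-08). *Lor*, which encodes the cornified envelope protein loricrin, fell by 4.26 (SE 0.179, adjusted p = 1.6e-07) and *Hrnr*, the hornerin gene, fell by 4.90 (SE 0.191, adjusted p = 1.2e-07). The log2 fold changes of the fitted members, -5.08 to -2.28, lay within the range of these markers.

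**Figure D4:**
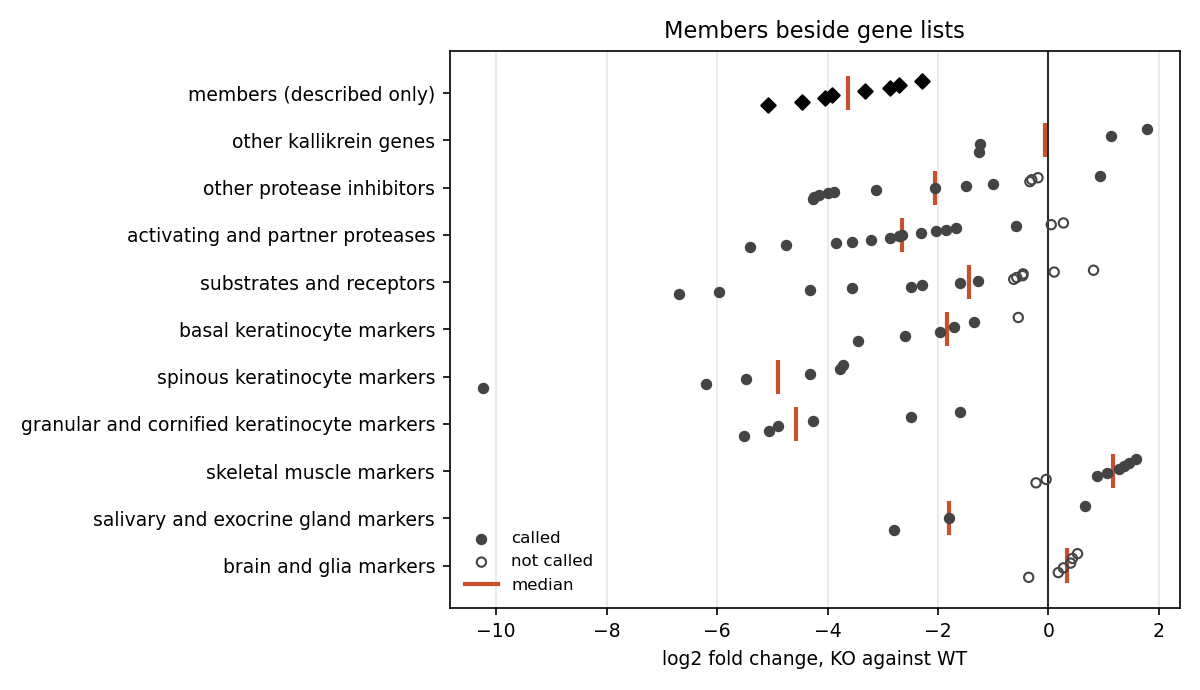
Each point is the log2 fold change of 1 gene, KO against WT, with filled points for genes called, open points for genes not called, diamonds for the members (described only) and a line at the median of each list. The 8 fitted members spread around a median of -3.62, the keratinocyte lists are all below 0, and 6 of the 8 muscle markers are above it.

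Set against the marker lists, the comparison of the members depended on which markers were used. The summed kallikreins had 206 ± 21.2 counts per 1000 counts of basal markers in WT against 78.6 ± 13.1 in KO (SD, n = 3 per group). Per 1000 counts of spinous markers the order turned round, with 20.7 ± 0.58 in WT against 74.8 ± 13.1 in KO. Per 1000 counts of granular and cornified markers the kallikrein sum was 83.9, 84.1 and 88.5 in the WT replicates and 82.2, 77.2 and 81.0 in the KO replicates. The groups did not overlap, but their means of 85.5 ± 2.57 and 80.2 ± 2.60 were 1.07-fold apart. This near-equal value rested on *Flg*, which made up 55.4 to 63.2% of the summed CPM of the list in KO and 15.7 to 17.1% in WT. With *Flg* left out, a choice made after seeing the data, the kallikrein sum per 1000 counts of the other 5 markers was 101, 99.8 and 106 in the WT replicates against 224, 173 and 186 in the KO replicates, a 1.90-fold higher mean in KO.

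The spinous sum was likewise carried by few genes, as *Krt1* and *Krt10* made up 85.3 to 86.5% of it in WT and 60.9 to 69.2% in KO. Without them the kallikrein sum per 1000 counts of the other 4 spinous markers was 143, 149 and 153 in the WT replicates against 229, 209.8 and 225 in the KO replicates, a 1.49-fold higher mean in KO. Taken against 1 marker at a time, the kallikrein sum was lower in KO for 6 of 6 basal markers, with log2 ratios of KO over WT from -2.97 to -0.063. The sum was higher in KO for 6 of 6 spinous markers, from 0.19 to 6.93. Against the granular and cornified markers it was lower for 2, *Flg* and *Flg2*, and higher for 4, from -1.92 to 2.02.

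Single members differed from their sum on this scale. Per 1000 granular and cornified marker counts, *Klk7* had 44.3 ± 0.913 in WT against 31.5 ± 1.31 in KO, and *Klk5* had 14.4 ± 0.833 and 9.36 ± 0.953. *Klk11* was higher in KO on the same scale, at 5.50 ± 0.252 in WT against 12.2 ± 1.47 in KO, as were *Klk8* (6.72 and 9.92) and *Klk9* (6.10 and 10.1), and *Klk13* overlapped. *Spink5* had 19.8, 22.9 and 22.4 counts per 1000 granular and cornified marker counts in WT against 5.53, 7.05 and 8.10 in KO, a 3.15-fold lower mean in KO.

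These values of single members also depended on the markers. Without *Flg*, *Klk7* (53.0 ± 1.33 in WT, 76.0 ± 4.95 in KO) and *Klk5* (17.2 ± 0.969 and 22.5 ± 0.718) were higher in KO per 1000 counts of the other granular and cornified markers. *Klk10* overlapped on that scale, and *Klk13* no longer did, at 5.43 ± 0.295 in WT and 12.0 ± 2.84 in KO. *Klk8*, *Klk9* and *Klk11* stayed higher in KO, and *Spink5* stayed lower, by 1.58-fold. Per 1000 spinous marker counts *Spink5* was 5.26 ± 0.258 in WT against 6.32 ± 0.611 in KO, and without *Krt1* and *Krt10* the order turned round, with 37.7 ± 3.45 in WT against 19.0 ± 3.53 in KO. The counts of *Klk14* were too few for such ratios.

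**Figure D5:**
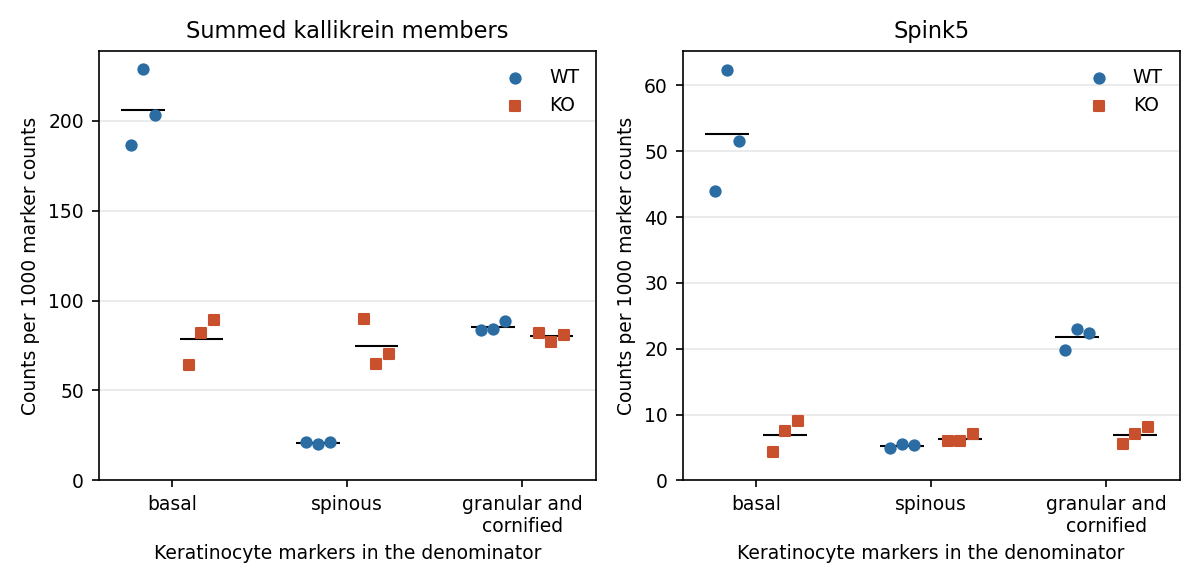
Counts of the summed kallikreins (left) and of *Spink5* (right) per 1000 counts of each keratinocyte marker list, with 1 point per sample (circles, WT; squares, KO) and a line at the mean of each group of 3. The kallikrein sum is lower in KO against basal markers, higher against spinous markers and within 1.07-fold against granular and cornified markers, where it is 1.90-fold higher in KO if *Flg* is left out, and *Spink5* is 3.15-fold lower in KO against the last list and 1.58-fold lower without *Flg*.

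Muscle itself, and brain and exocrine glands, where kallikreins are also made, were checked with 3 further lists. Of 8 skeletal muscle markers, 2 were not called and 6 rose (all genes: 8.31% higher). Among the latter were *Myh8* with a log2 fold change of 1.59 (SE 0.109, adjusted p = 3.1e-06), *Acta1* with 1.47 (SE 0.107, adjusted p = 4.6e-06) and *Ttn* with 0.88 (SE 0.073, adjusted p = 1.0e-05). None of the 8 was called lower by edgeR, DESeq2 or limma-voom, and 1, *Myog*, was lower at an unadjusted p under 0.05. *Myog*, named after its values were seen, had a log2 fold change of -0.22 (SE 0.042, adjusted p = 0.0021 by edgeR). That is under the 1.5-fold threshold, and its groups did not overlap. All KO samples were below all WT samples in 28.5% of all genes tested. The paper reports more MyoG protein in KO leg muscle, and protein was not measured here. Of 6 brain and glia markers, 0 were called by edgeR, DESeq2 or limma-voom, and 4 were higher at an unadjusted p under 0.05. Of 6 salivary and exocrine gland markers, 3 could be tested, with a summed level of the list of at most 4.16 CPM in any sample.

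The gland marker *Aqp5*, an aquaporin of secretory cells, had 221, 7 and 58 counts in WT against 16, 16 and 9 in KO. It was called lower (log2 fold change -2.79, SE 0.931, adjusted p = 0.035) although the groups overlapped, and the call was lost without WT replicate 1 (-1.21, adjusted p = 0.165), without KO replicate 1, 2 or 3 (adjusted p = 0.076, 0.090 and 0.122) and with limma-voom (adjusted p = 0.233). *Bhlha15*, a regulator of secretory cells, fell by 1.79 on the log2 scale (SE 0.297, adjusted p = 9.7e-04). *Amy1* rose by 0.66 (SE 0.183, adjusted p = 0.015), and was not called without KO replicate 2 or KO replicate 3 (adjusted p = 0.065 and 0.056). Of the list, *Prol1* was at 0 in all samples.

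The genes whose pattern over the 6 samples was most like that of the members were found by the Euclidean distance between log2(CPM + 0.1) profiles centred on their mean, among 15856 genes with a mean of at least 1 CPM. Nearest to the kallikrein sum was *Ces2f*, a carboxylesterase gene, at a distance of 0.092 where the median gene stood at 4.30, with a level of 67.1 ± 14.9 CPM in WT against 5.66 ± 0.495 CPM in KO. It was followed by *Sult2b1*, which encodes the cholesterol sulfotransferase of the epidermis, at 0.127, by *Gsdma* at 0.139, by *Adh6b* at 0.174 and by *Gjb5*, a connexin gene, at 0.176. Nearest to *Spink5* was *Serpinb12*, a serpin gene, at 0.115 (median 6.20), with 115 ± 25.0 CPM in WT against 3.43 ± 0.943 CPM in KO. The next were *Gm48704* at 0.305, the serine protease gene *Tmprss11f* at 0.307, *Sptlc3*, which encodes a subunit of the enzyme that starts sphingolipid synthesis, at 0.308 and *Lypd3* at 0.310. The 6 points of each profile fall into the 2 genotypes, so likeness here is mostly likeness of the difference between them. The kallikrein sum and *Spink5* lie further apart in that difference than the distances named, so the 2 sets of 5 genes could share no gene.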

How the data were processed

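Total RNA of leg muscle from 3 WT and 3 *SYISL* KO fetuses at E18.5 was sequenced. The authors deposited raw counts per gene. The submitters' processing notes name Trim Galore 0.6.6, HISAT2 2.2.1, featureCounts 2.0.1 and mm10, and the strand setting is not given in the sources used here. Ensembl IDs were matched to GENCODE M21 (55227 of 56262 matched). The members and gene lists were chosen with earlier results of these data known. Counts were fitted over all genes with edgeR 4.0.16 in R 4.3.3 (filterByExpr, TMM, quasi-likelihood test, Benjamini-Hochberg adjustment over 22071 genes), and genes with a fold change above 1.5 at an adjusted p below 0.05 were called. Of each list, the 3 genes with the highest mean CPM among those called in each direction were named. Each SE of an edgeR log2 fold change was derived from the test, as the absolute log2 fold change divided by the square root of the F statistic. DESeq2 1.42.0 and limma 3.58.1 (voom) were alternatives. The fits were checked on simulated counts, where edgeR called 169 of 200 changed genes and 6 unchanged ones. The simulation held far fewer changed genes than were called in the data, so it does not cover that setting. Intervals and the floor of 3 counts cover counting error only.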

Additional observations from a re-analysis of the deposited data

How the results depend on the processing

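Over 14 alternative fits (other scalings, tools and filters, a replicate block, and each sample left out), each of the 8 fitted members stayed lower in KO. All 112 recomputed values moved by less than the spread between replicates. Leaving out 1 of 3 samples can hardly move the mean of a group further than that spread, so nothing is read from this count. The median log2 fold change of the members ranged from -3.75 (without WT replicate 1) to -3.43 (without WT replicate 2) when 1 sample was left out. The value without WT replicate 2 lay further from the main value of -3.62 than the replicate spread of the median, 0.182. Same-numbered samples did not deviate together (correlations -0.20, -0.13 and 0.05). No pairing by number was seen, but deviations from means of 3 samples cannot exclude one. With the replicate block the median was -3.60, and among the genes named above it changed no call. The scalings moved the median of all genes by less than 0.1 on the log2 scale.

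Counts of calls that moved were small. Other kallikreins called lower were 5 with no filter on low counts and 0 with at least 10 counts in every sample, against 2, and 1 to 3 when 1 sample was left out. Those called higher were 1 with at least 10 counts in every sample, against 2, and 1 to 2 when 1 sample was left out. Substrates and receptors called higher were 1 with limma-voom or no filter and 0 to 1 with 1 sample left out, against 0. Gland markers called lower were 1 with limma-voom or the stricter filter and 1 to 2 with 1 sample left out, against 2, and those called higher were 0 to 1 with 1 sample left out, against 1. Brain and glia markers called higher were 1 with upper-quartile factors and 0 to 1 with 1 sample left out, against 0. Genes beside the cluster called lower were 6 with no filter and 2 to 5 with 1 sample left out, against 3. *Ctsd* was also under the fold threshold with upper-quartile factors (-0.52), and *Cd33* with library size only (0.55).

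The log2 ratio of the kallikrein sum, KO over WT, was -1.39 per basal marker count, -3.52 per scaled library, -0.093 per granular and cornified marker count, and reversed to 1.85 per spinous marker count. With denominators chosen after seeing the data it was also reversed, to 0.92 per granular and cornified marker count without *Flg* and to 0.58 per spinous marker count without *Krt1* and *Krt10*. Without length scaling, the share of *Klk7* was 51.8% in WT and 39.4% in KO. Low counts kept *Klk14*, *Klk12*, *Klk4* and *Klk1b1* out of the edgeR fit with the filter. *Klk14* was fitted by DESeq2 and by edgeR with no filter and was called by neither.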
